A study of Homo sapiens with 10 samples.

Results

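The comparison is between 2 human breast cancer cell lines as they stood after control transfection: SKBR3 and MDA-468. Its members are 5 of the 10 arrays of the series, the 2 titled SKBR3 control and the 3 titled MDA control, and they were chosen by title alone. Cells of all 5 had received a control double-stranded RNA oligonucleotide (siControl) and were harvested 48 h later. The other 5 arrays, 2 of SKBR3 and 3 of MDA-468, had received an oligonucleotide against Che-1, the protein encoded by AATF (siChe-1). They serve below as a further set of arrays of the same lines. They were also used to ask whether a line difference changed with transfection. Both lines were grown in RPMI medium with fetal calf serum, and the labels describe both as expressing a mutant p53. No untransfected array was analysed here, so every level below is that of transfected cells. Each line stands for itself: 1 line per side does not sample a tumour subtype, and nothing in the labels says whether the arrays of a line came from separate cultures, so p-values measure the spread between these arrays, which may be technical.

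As background, SKBR3 is a hormone receptor negative line known for amplification of ERBB2 (HER2), the receptor tyrosine kinase that takes no ligand of its own and signals as a partner of the other ERBB receptors. MDA-468, the usual short name of MDA-MB-468, is a line of the basal-like, triple-negative kind, known for amplification of EGFR and for deletions that remove RB1 and SMAD4. Luminal breast epithelium is marked by keratins 8, 18 and 19 and by the transcription factors GATA3, FOXA1 and ESR1, and basal epithelium by keratins 5 and 14, CD44 and integrin alpha 6. Copy number and protein were not measured here.

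Values are normalized log2 intensities of Affymetrix probe sets, and a difference is always SKBR3 minus MDA-468, so that a difference of 1 is 2-fold. The deposited medians lay at 6.36 and 6.399 on the SKBR3 arrays and between 6.87 and 6.88 on the MDA-468 arrays, so the 5 arrays were quantile-normalized together. Correlations over the 18417 genes analysed, with 1 probe set each, were 0.995 within SKBR3, 0.997 within MDA-468 and 0.888 to 0.899 between the lines. A gene was called when its limma adjusted p (Benjamini-Hochberg) was below 0.05 and its difference was at least 1. Of 18417 genes, 2933 (15.9%) were called, 1066 higher in SKBR3 (5.79%) and 1867 higher in MDA-468 (10.1%). The arrays of the lines did not overlap for 77.2% of genes, and 66.5% passed the adjusted p alone, so with replicates this close the size of a difference says more than its p. With the deposited values unscaled, the median difference of all genes moved from 0.096 to -0.383 and the calls became 444 higher in SKBR3 and 3939 higher in MDA-468 (10.1% against 36.3% of calls on the SKBR3 side). Whether the lines differ in total signal or were processed apart cannot be told apart, and lists are therefore read against the median of all genes. The word dim marks a level below 5.99, the 30th percentile. No detection call accompanies the values, so a fold against a dim level is a difference of intensities and no measured ratio of RNA.

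The main ERBB receptor differed between the lines: SKBR3 was high in ERBB2 and MDA-468 in EGFR. ERBB2 measured 12.52 and 12.38 in SKBR3 and 8.004, 7.97 and 8.19 in MDA-468. Its difference was 4.398 (SE 0.096, adjusted p = 2.85e-08). EGFR, the receptor of EGF and TGF-alpha, went the other way, at 8.27 and 8.26 in SKBR3 and 12.14, 12.15 and 12.13 in MDA-468, a difference of -3.88 (SE 0.072, adjusted p = 1.7e-08). The arrays of the lines were thus far apart for both receptors, and each line still held the other line's receptor above the dim level. ERBB3, the kinase-impaired partner that ERBB2 needs for strong signalling, measured 9.33 and 9.21 in SKBR3 and 8.39, 8.34 and 8.43 in MDA-468. It differed by 0.88 (SE 0.08, adjusted p = 4.33e-05), under the 2-fold minimum. ERBB4 was dim in both lines, with means of 5.41 and 4.95.

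Of 10 measured ERBB ligands, TGFA was called higher in MDA-468 and EPGN higher in SKBR3. TGFA, a ligand of EGFR, measured 5.02 and 4.62 in SKBR3 and 8.33, 8.34 and 8.28 in MDA-468 and differed by -3.499 (SE 0.12, adjusted p = 2.01e-07). It was thus high on the arrays on which EGFR was high and dim on the others. EPGN (epigen) was dim in both lines (4.69 and 3.62 on average), so its difference of 1.08 lies within the lowest intensities. EGF (0.604), NRG2 (0.73), NRG3 (0.503), NRG4 (0.34), NRG1 (0.38), EREG (0.37), HBEGF (-0.21) and BTC (-0.91) were not called.

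Among the other receptor tyrosine kinases 3 of 27 were called in each direction, 22.2% in all against 15.9% of all genes. The fibroblast growth factor receptors FGFR4 (8.34 against 6.57, difference 1.76) and FGFR3 (1.45) were higher in SKBR3, as was TYRO3 (1.204), a receptor of the TAM family. The orphan-type receptor ROR1 (5.92 against 8.72, difference -2.798), the ephrin receptor EPHA4 (-2.14) and the VEGF receptor KDR (-1.81) were higher in MDA-468. ESR1, the estrogen receptor gene, stood at 5.29 in SKBR3 and 6.14 in MDA-468, dim in the former and just above the dim limit in the latter. PGR, the progesterone receptor gene, was dim in both (4.46 and 4.13).

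**Figure D1:**
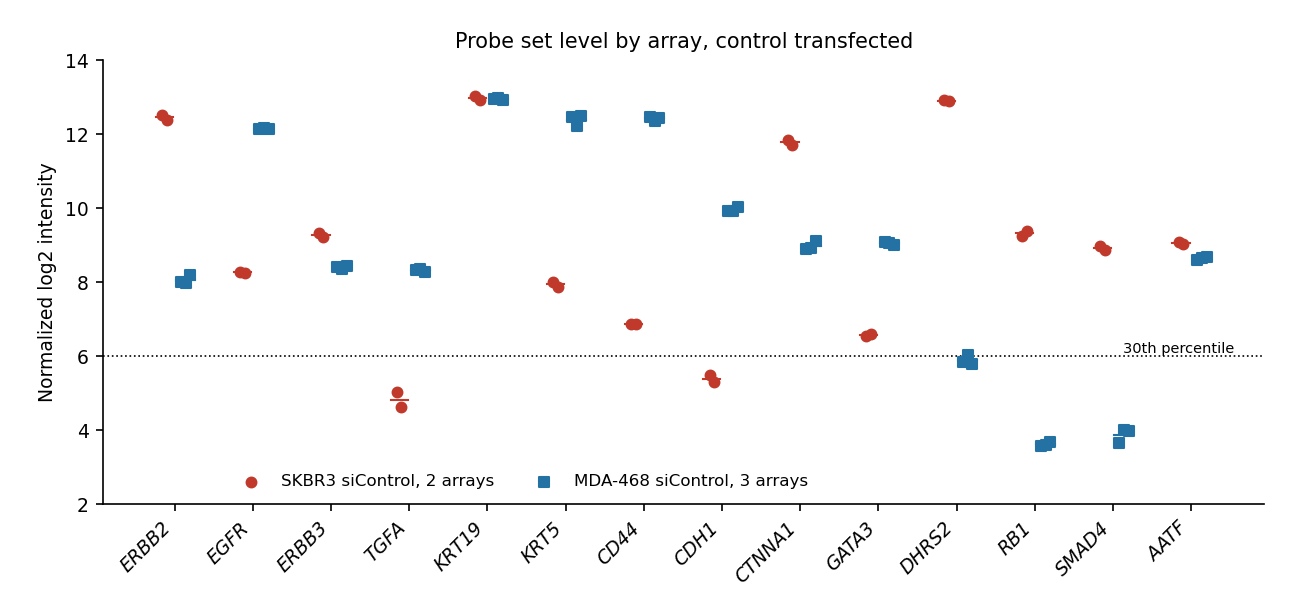
Normalized log2 intensity of 14 genes on each control-transfected array, SKBR3 as red circles (2 arrays) and MDA-468 as blue squares (3 arrays), with short lines at the means and a dotted line at the 30th percentile of 5.99. ERBB2 and EGFR change places between the lines, KRT19 overlaps, and RB1 and SMAD4 lie below the dotted line on every MDA-468 array.

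The genes around ERBB2 on chromosome 17 were higher in SKBR3 together. Of 35 measured members of the 17q12-q21 list, ERBB2 itself among them, 24 were called higher in SKBR3 and 1 higher in MDA-468. Over all genes these shares were 5.79% and 10.1%. The median difference was 1.59 against 0.096 over all genes. PGAP3, which remodels GPI anchors and lies next to ERBB2, measured 10.43 and 10.17 in SKBR3 and 6.38, 6.27 and 6.55 in MDA-468. Its difference was 3.900. GSDMB, a gasdermin that can form membrane pores, measured 11.03 and 11.08 in SKBR3 and 6.902, 6.64 and 6.73 in MDA-468 and differed by 4.296, nearly as much as ERBB2 itself. The SKBR3 arrays lay above all MDA-468 arrays for each of the 24. This adds little, since the 24 were picked by their call and the lines did not overlap for 77.2% of all genes. GRB7, an adaptor that binds ERBB2, differed by 2.96, STARD3, a cholesterol transfer protein of late endosomes, by 2.53, and MIEN1 by 2.42. The transcription kinase CDK12 (2.905) and the Mediator subunits MED1 (2.85) and MED24 (2.38) were in the same range, as was FBXL20 (2.97), an F-box protein. All of them lie within 10 measured genes of ERBB2.

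On the far side of GSDMB the differences were 1.34 for ORMDL3, 1.68 for the proteasome subunit PSMD3, 1.27 for the thyroid hormone receptor gene THRA, 1.03 for NR1D1, 2.34 for MSL1, 1.94 for CASC3, 1.08 for RAPGEFL1, 1.59 for WIPF2, 1.75 for the replication licensing factor CDC6 and 2.21 for TNS4. On the near side CACNB1 (1.08), RPL19 (1.07), STAC2 (1.84) and TCAP (1.61) were called. Genes of the same stretch without a call included IKZF3 (0.95, dim in both), GJD3 (0.89), PNMT (0.66), ZPBP2 (0.64, dim in both), CSF3 (0.45), NEUROD2 (0.399) and PPP1R1B (0.27). TOP2A, the topoisomerase gene that is often gained with ERBB2, differed by 0.85, SMARCE1 by 0.57 and CCR7 by 0.43, none of them called, and IGFBP4 was higher in MDA-468 (-1.02). Over the 10 measured genes on either side of ERBB2 the median difference was 1.76, with 14 of 20 called higher in SKBR3 and 0 higher in MDA-468. It was 2.02 over 5 on either side and 1.08 over 20.

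Around EGFR on chromosome 7 the genes higher in MDA-468 lay mostly to one side. Of 15 measured genes of the 7p11 list, EGFR itself among them, 11 were called higher in MDA-468 and 1 higher in SKBR3. Over all genes these shares were 10.1% and 5.79%. The list median was -1.45. VOPP1, a gene known to be co-amplified with EGFR, measured 6.86 and 6.92 in SKBR3 and 12.33, 12.26 and 12.403 in MDA-468. Its difference of -5.44 exceeded that of EGFR, and the 2 probe sets of the gene gave -5.44 and -5.42. LANCL2, the gene next to EGFR, differed by -2.79, and ZNF713 by -4.32, from a dim level in SKBR3. PSPH, the last enzyme of serine synthesis, differed by -2.51, NIPSNAP2 by -1.83, the adaptor GRB10 by -1.64, PHKG1 by -1.44, MRPS17 by -1.26, CHCHD2 by -1.24 and the chaperonin subunit CCT6A by -1.09. VSTM2A on the other side of EGFR differed by -0.052, SUMF2 by -0.16 and SEPTIN14 by 0.69, none called. COBL, an actin nucleator, was higher in SKBR3 (8.75 against 5.09, difference 3.66). Over 10 genes on either side of EGFR the median difference was only -0.17. Of these 20 genes, 8 were called higher in MDA-468 and 2, COBL and DDC (2.32), higher in SKBR3. Over 20 genes on either side the median was -0.05. Of the 10 genes before EGFR only GRB10 was called higher in MDA-468.

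**Figure D2:**
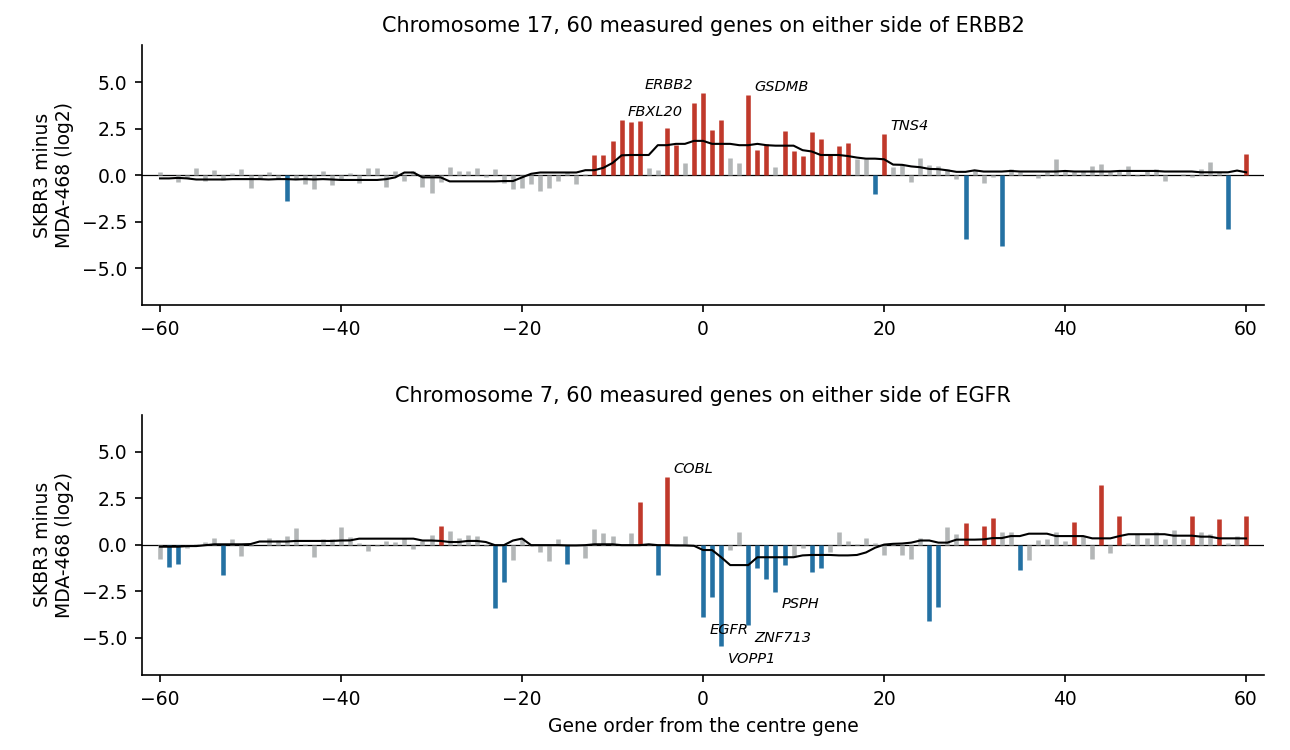
Line difference (log2, SKBR3 minus MDA-468) of each measured gene by its order from ERBB2 on chromosome 17 (upper) and from EGFR on chromosome 7 (lower), with 60 genes on either side. Red bars are genes called higher in SKBR3, blue bars genes called higher in MDA-468, grey bars genes not called, and the black line is the running median of 21 genes. The red bars form a block around ERBB2, while the blue bars next to EGFR lie on its right side.

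RB1 and SMAD4 were both higher in SKBR3. RB1, the tumour suppressor that holds E2F factors in check, measured 9.24 and 9.38 in SKBR3 and 3.57, 3.599 and 3.66 in MDA-468, a difference of 5.702 (SE 0.083, adjusted p = 6.99e-09). SMAD4, the shared partner of the receptor-regulated SMADs, measured 8.97 and 8.87 in SKBR3 and 3.64, 3.99 and 3.98 in MDA-468 and differed by 5.05 (SE 0.12, adjusted p = 4.24e-08). All MDA-468 levels of both genes were dim, and no SKBR3 level was. The median over 10 genes on either side was -0.07 around RB1, with 1 of 20 called in each direction, and -0.21 around SMAD4, with 1 called higher in SKBR3 and 2 higher in MDA-468. The called genes around RB1 were LCP1, the actin-bundling plastin of leukocytes (4.76), and CAB39L (-2.37). The genes nearest RB1 differed by -0.37 (ITM2B), -0.16 (MED4), 0.25 (SUCLA2), 0.93 (LPAR6), 0.68 (RCBTB2) and -0.46 (CYSLTR2). Next to SMAD4, ELAC1 was also called higher in SKBR3 (1.98), while ME2 (-0.94), MRO (-0.200), MEX3C (-0.82), DCC (-0.14) and MBD2 (-0.65) were not called. Farther off, POLI (-1.01) and C18orf54 (-2.08) were higher in MDA-468.

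CDH1, which encodes E-cadherin, measured 5.49 and 5.297 in SKBR3 and 9.93, 9.92 and 10.04 in MDA-468, a difference of -4.57 (SE 0.09, adjusted p = 1.87e-08). It was dim on both SKBR3 arrays. The adjacent P-cadherin gene CDH3 (-3.85) and ZFP90 (-2.04) were also called higher in MDA-468, whereas TANGO6 (-0.065), HAS3 (-0.084), CHTF8 (-0.0084) and SMPD3 (0.026) were not called, and the median over 10 genes on either side was -0.08. CDKN2A, the gene of the CDK4 inhibitor p16, differed by -0.91 without a call, CDKN2B by -0.68 and MTAP by 0.32. Of the remaining tumour suppressors only INPP4B (-2.87), a lipid phosphatase of the PI3K pathway, and PIK3R1 (-1.29), the regulatory subunit of PI3K, were called, both higher in MDA-468.

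MYC measured 11.11 and 10.98 in SKBR3 and 9.33, 9.29 and 9.43 in MDA-468 and differed by 1.69 (SE 0.085, adjusted p = 1.71e-06). Over 10 neighbours on either side on chromosome 8 the median was 0.405. Of these 20, 4 were called higher in SKBR3, namely MTSS1 (2.73), NDUFB9 (2.45), WASHC5 (1.93) and NSMCE2 (1.67), and 2 higher in MDA-468, GSDMC (-3.302) and EFR3A (-1.198). CCND1, the cyclin D1 gene, differed by 0.19, and MYEOV beside it was called higher in MDA-468 (-1.91). ZNF217 on chromosome 20 differed by 0.75 without a call, with a median of 0.57 over its 20 neighbours and 5 of them called higher in SKBR3. BCAS1, named for its amplification in breast cancer and lying close to ZNF217, was the 15th largest difference on the SKBR3 side (10.42 against 5.48, difference 4.94). PHGDH, the first enzyme of serine synthesis, was called higher in MDA-468 (-1.53), and none of its 20 neighbours was called.

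Windows of 21 successive measured genes were also ranked by their median, and the 5 highest and 5 lowest that did not overlap were taken, which chooses the windows by the difference itself, so these values carry no test. Of 17905 windows, the 5th and 95th percentiles of the median were -0.54 and 0.48. The highest window taken was that of ERBB2, from STAC2 to THRA (1.84). Next came 2 windows of chromosome 8, from COLEC10 to KLHL38 (1.47, with TBC1D31 at 3.16 and the chromatin factor ATAD2 at 2.65) and from RPL7 to ZNF704 (1.38, with ZC2HC1A, JPH1 and ZNF704 at 2.54). A window of chromosome 3 from ITGA9 to XIRP1 followed (1.07, with MYD88 at 1.42), then one of chromosome 16 from ADCY9 to SEC14L5 (1.06, with GLYR1 at 4.41 and UBN1 at 3.99). At the other end stood 3 windows of zinc finger genes on chromosome 19, described further on, 1 of chromosome 1 from MEAF6 to BMP8A (-1.18, with RHBDL2 at -2.901) and 1 of chromosome 6 from FAM229B to KPNA5 (-1.16, with the laminin gene LAMA4 at -4.23). On the siChe-1 arrays the same 10 windows had medians on the same side of 0.

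No luminal keratin was called, and of 11 other keratins 4 were higher in MDA-468 and 2 in SKBR3. These other keratins had 54.5% called, against 15.9% of all genes. KRT19 measured 13.01 and 12.92 in SKBR3 and 12.94, 12.97 and 12.93 in MDA-468, among the highest levels of the arrays, and the lines overlapped. KRT8 (0.33), KRT18 (0.35), KRT7 (0.64) and the intestinal KRT20 (-0.11, dim in both) were also not called, so that 0 of 5 luminal keratins were. KRT5, the keratin of basal epithelium, measured 8.01 and 7.86 in SKBR3 and 12.45, 12.22 and 12.498 in MDA-468 and differed by -4.45 (SE 0.11, adjusted p = 4.12e-08). The other calls were mixed in kind: KRT23 (-3.82), the epidermal KRT10 (-3.41) and KRT15 (-2.900) were likewise higher in MDA-468, while KRT4 (2.16), a keratin of stratified mucosa, and KRT80 (1.09) were higher in SKBR3. KRT14, the usual partner of keratin 5, stood at 7.87 and 7.85 and was not called. KRT6A, KRT6B and KRT17 had no probe set of a single symbol and were not analysed here.

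Genes of the basal breast list were mostly higher in MDA-468. Of 40 measured, 28 were called higher in MDA-468 and 0 higher in SKBR3, against 10.1% and 5.79% of all genes, with a median of -1.56. CD44, the hyaluronan receptor, measured 6.87 and 6.86 in SKBR3 and 12.47, 12.36 and 12.44 in MDA-468, a difference of -5.56 (SE 0.076, adjusted p = 6.64e-09). PROM1, the gene of the stem cell marker CD133, differed by -5.59, the membrane-cytoskeleton linker MSN by -5.396 and the desmosomal cadherin DSC3 by -5.37. All MDA-468 arrays lay above 9 for these 4 genes and all SKBR3 arrays below 7. The other 24 of the 28 differed by between -5.15 (the kallikrein gene KLK5) and -1.01 (MARCKSL1). FSCN1 (0.42), ITGB4 (0.54) and KLK11 (0.55) differed towards SKBR3 without a call.

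Luminal genes were divided between the lines. Of 33 measured luminal and apocrine genes, 8 were called higher in SKBR3 and 12 higher in MDA-468, with a median of -0.02. The list had 60.6% called, against 15.9% of all genes. DHRS2, a short-chain dehydrogenase, measured 12.92 and 12.88 in SKBR3 and 5.84, 6.03 and 5.78 in MDA-468 and differed by 7.02 (SE 0.094, adjusted p = 6.64e-09), the second largest difference on the SKBR3 side. The carbonic anhydrase CA12 (9.79 against 5.65), BCAS1 and mammaglobin (SCGB2A2, 1.89) were higher in SKBR3 as well. AZGP1, a secreted zinc-binding glycoprotein of apocrine epithelium, was higher in MDA-468 (9.18 against 12.43), with CLCA2 (-2.44), CRISP3 (-2.39) and CYP4Z1 (-2.25). The median of this list moved with the settings, to 0.11 with median-centred values, -0.581 and -0.81 with filters at the 30th and 50th percentile, and -0.201 without SKBR3 siControl replicate 2.

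Of 17 measured luminal transcription factors, 2 were called higher in SKBR3 and 3 higher in MDA-468, 29.4% in all against 15.9% of all genes. GATA3, which specifies luminal cells, measured 6.53 and 6.59 in SKBR3 and 9.08, 9.07 and 9.003 in MDA-468, so it was the basal-like line that held more of it (difference -2.49 (SE 0.076, adjusted p = 1.18e-07)). EHF, an ETS factor of epithelia, differed by -4.41 and BHLHE40, a repressor of the circadian system, by -2.77. TBX3 (1.57), a T-box factor of mammary development, and CREB3L4 (1.12) were higher in SKBR3. FOXA1 (0.595), XBP1 (0.72), SPDEF (0.53), TFAP2A (0.53), TOX3 (0.57), ZNF552 (0.54), KDM4B (0.28), ELF3 (0.27), TFAP2B (0.015), MYB (-0.504) and GRHL2 (-0.88) were not called.

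Of 20 basal and stem-like factors, 5 were higher in MDA-468 and 1 higher in SKBR3. ETS1, an ETS factor of invasive cells, stood at 5.095 in SKBR3 and 8.74 in MDA-468, and ZIC1 (-2.83), POU2F3 (-1.24) and the TEAD cofactor VGLL1 (-1.12) followed. The exception was ELF5, a factor of milk-secreting alveolar cells, at 8.34 in SKBR3 and 5.84 in MDA-468.

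Adhesion genes also went both ways, with 5 of 27 called higher in SKBR3 and 6 higher in MDA-468. The share called was 40.7%, against 15.9% of all genes. CLDN8 (3.87 against 9.67) and CLDN1 (6.63 against 10.91), both tight junction claudins, were higher in MDA-468 with CDH1 and AP1M2 (-1.83). CTNNA1, the alpha-catenin that links cadherins to actin, was higher in SKBR3 at 11.83 and 11.71 in SKBR3 and 8.89, 8.92 and 9.096 in MDA-468. Plakoglobin (JUP, 1.14), LLGL2 (1.16) and SPINT1 (1.07) were also higher in SKBR3. Of 15 measured integrins, 5 were higher in MDA-468 and 0 in SKBR3, with ITGB8 (-4.69), ITGB6 (-3.700), ITGA6 (-2.496) and ITGA3 (-1.16) the largest. For integrins the share called was 33.3%. Of 28 mesenchymal genes, 4 were higher in MDA-468 and 1 in SKBR3, a share of 17.9% near the 15.9% of all genes. The ectonucleotidase NT5E (-3.58) and fibronectin (FN1, -2.93) led them, and vimentin (VIM) was also called, at 5.04 in SKBR3 and 6.29 in MDA-468 (-1.25). The factor SNAI1 was higher in SKBR3 (1.43).

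**Figure D3:**
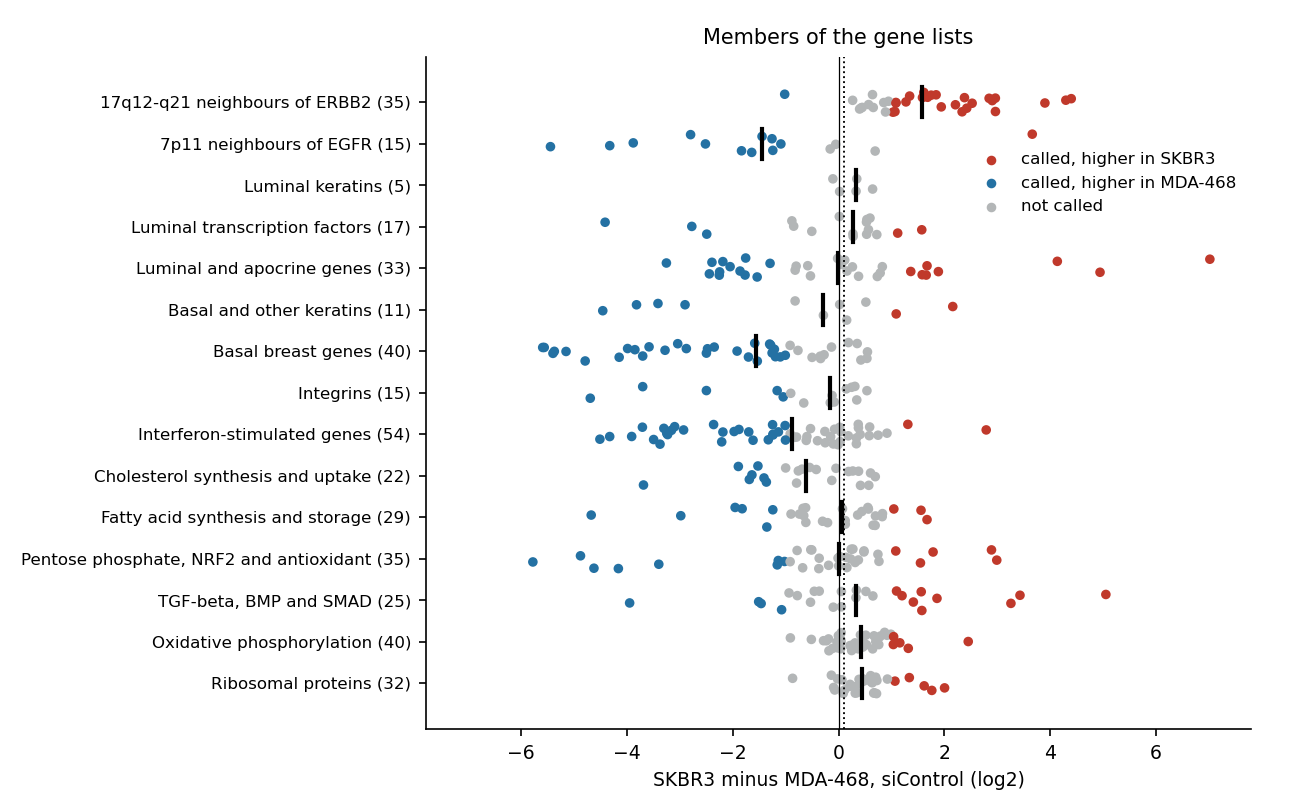
Line difference (log2, SKBR3 minus MDA-468) of every measured member of 15 gene lists, with the number of members in brackets. Red points are called higher in SKBR3, blue points called higher in MDA-468 and grey points not called, black bars are list medians, the solid line is 0 and the dotted line the median of all genes. The 17q12-q21 list lies to the right and the basal breast and interferon lists to the left.

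The genes with the largest differences were mostly bright in 1 line and dim in the other. On the MDA-468 side, MGP, an inhibitor of tissue calcification, measured 4.14 and 3.68 in SKBR3 and 11.29, 11.19 and 11.21 in MDA-468. OLFM4, a secreted glycoprotein, measured 4.74 and 4.43 in SKBR3 and 11.82, 11.697 and 11.85 in MDA-468. They differed by -7.32 and -7.21, and the lines did not come near each other. RARRES1 (-6.63), a retinoid-induced gene, TNFSF10 (-6.59), the gene of the death ligand TRAIL, ZFP42 (-6.48), a zinc finger factor of pluripotent cells, ECHDC1 (-6.46), an enzyme that clears ethylmalonyl-CoA, and CASP14 (-6.04), the caspase of keratinocytes, came next. ZNF91 (-5.998), the histone gene H4C13 (-5.95), TMEM156 (-5.92), MME (-5.88), the peptidase CD10, CLDN8, the adhesion receptor ADGRF1 (-5.78), AKR1C1 (-5.78) and the neuropeptide Y receptor NPY1R (-5.73) completed the 15.

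On the SKBR3 side ZC2HC1A measured 10.57 and 10.67 in SKBR3 and 3.22, 3.37 and 3.19 in MDA-468, the largest difference of all at 7.36 (SE 0.088, adjusted p = 6.64e-09). TDRD1, a Tudor protein of the germ-line piRNA pathway, stood at 10.32 against 3.52. WWC2 (5.96), the urea cycle enzyme CPS1 (5.96), the monocarboxylate carrier SLC5A8 (5.68), TARP (5.601), a transcript of the T cell receptor gamma locus, JPH1 (5.597), ERBIN (5.21), a scaffold that binds ERBB2, the kinase RPS6KA6 (5.15), the amino acid carrier SLC6A15 (4.98) and LINC00221 (4.97) joined DHRS2, RB1, SMAD4 and BCAS1. Of the 30 genes, all were called in the same direction on the siChe-1 arrays. TARP had 3 probe sets, which gave 0.039 to 5.601, and AKR1C1 had 2, which gave -5.78 and -0.44, so the choice of probe set sets their size. AKR1C members are near-identical, and their probe sets may read each other.

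Interferon-stimulated genes were higher in MDA-468 at baseline. These genes are induced by STAT complexes that bind the interferon-stimulated response element (ISRE), and their basal level is often called interferon tone. Of 54 measured, 26 were called higher in MDA-468 and 2 higher in SKBR3, against 10.1% and 5.79% of all genes, with a median of -0.87. The promoters of PARP14, with the largest difference towards MDA-468, and of IFI44L, with the largest towards SKBR3, are shown because both hold the element (250 bases before to 50 after the start, RefSeq, GRCh38.p14, 5' to 3', chr3:122680589-122680888 and chr1:78620198-78620497, both on the plus strand). Capitals mark the ISRE core as searched, 2 copies of GAAA set 2 bases apart, on either strand.
PARP14: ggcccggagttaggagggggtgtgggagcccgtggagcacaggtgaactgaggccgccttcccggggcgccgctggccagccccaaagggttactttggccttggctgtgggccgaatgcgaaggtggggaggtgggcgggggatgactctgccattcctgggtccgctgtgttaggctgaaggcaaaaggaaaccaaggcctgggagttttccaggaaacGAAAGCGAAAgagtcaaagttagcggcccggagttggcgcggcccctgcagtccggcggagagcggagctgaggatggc
IFI44L: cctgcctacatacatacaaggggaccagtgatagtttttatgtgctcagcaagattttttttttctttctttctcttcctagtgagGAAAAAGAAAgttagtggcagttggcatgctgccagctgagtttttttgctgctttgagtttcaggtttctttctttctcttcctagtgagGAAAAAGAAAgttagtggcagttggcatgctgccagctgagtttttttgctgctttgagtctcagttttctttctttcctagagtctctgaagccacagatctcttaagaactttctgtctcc
Such a match stood in the promoters of 18 of 23 genes called higher in MDA-468 that had a promoter in the table, in 13 of 19 without a call and in both of those higher in SKBR3, against 4.12% of all measured genes and 3.58% of all 34961 promoters. The motif was thus common both among members that differed and among members without a call.

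PARP14, an ADP-ribosyltransferase, measured 4.97 and 4.56 in SKBR3 and 9.29, 9.27 and 9.28 in MDA-468 and differed by -4.51 (SE 0.12, adjusted p = 6.59e-08). Its neighbours in function PARP9 (-4.32) and the ubiquitin ligase DTX3L (-3.91), which form a complex, were close behind. The guanylate-binding protein GBP2 (-3.71) followed, and MX1 (-3.16), a GTPase that blocks viruses, is given as a familiar marker of the response. In 19 of the 26 the SKBR3 mean was dim, so that these differences start from the lowest intensities. IFIT1 (5.03 and 5.29), MX2 (4.97 and 4.97) and OAS2 (5.14 and 5.103), among the strongly inducible genes of the response, were dim in both lines and not called. ISG15, the ubiquitin-like modifier, stood above the dim level in both (7.11 and 7.36) and was not called. IFI44L went against the list at 7.87 and 7.84 in SKBR3 and 4.798, 5.19 and 5.22 in MDA-468, and ISG20, an exonuclease, differed by 1.31. With genes filtered at the 50th percentile of mean level, the median of the members that were left was -0.10.

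Genes that receive or start the response showed smaller differences. The interferon gamma receptor genes IFNGR1 (9.27 against 11.296, difference -2.03) and IFNGR2 (-2.04) and the kinase TYK2 (-1.23) were higher in MDA-468 and the feedback inhibitor SOCS2 (1.71) in SKBR3. IFNAR1 (-0.197), IFNAR2 (-0.13), IRF9 (-0.78) and IRF7 (0.17) were not called. Of 19 nucleic acid sensors and adaptors, the DNA sensor CGAS (3.92 against 6.58) and TLR3 (5.05 against 7.17) were higher in MDA-468, and the adaptor MYD88 (1.42) was higher in SKBR3. These 3 calls are 15.8% of the list, the same share as over all genes (15.9%). Of 16 measured antigen presentation genes, 4 were higher in MDA-468 and 2 in SKBR3 (37.5% called). The former were PSMB8 (-4.09) and PSMB9 (-1.92), subunits of the immunoproteasome, HLA-DPA1 (-1.14) and ERAP1 (-1.05). The latter were CD274 (1.27), the gene of PD-L1, which was dim in both lines, and HLA-DMA (1.200). The 3 probe sets of HLA-DPA1 gave -1.144 to -0.63.

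The siChe-1 arrays, on which antiviral genes stood high in both lines, gave another picture of this list. The median level of the 54 genes was 5.413 in SKBR3 and 6.898 in MDA-468 with siControl, and 10.799 and 11.039 with siChe-1. There 6 were called higher in SKBR3 and 9 higher in MDA-468, with a median difference of -0.24, and 7 were called the same way in both transfections. MX1, for example, differed by -3.16 with siControl and -0.19 with siChe-1, and PARP14 by -4.51 and -0.41. The line difference itself changed with transfection for 37 of the 54 genes (limma interaction, adjusted p below 0.05), towards SKBR3 in 31. GBP2 kept its difference (-3.51).

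**Figure D4:**
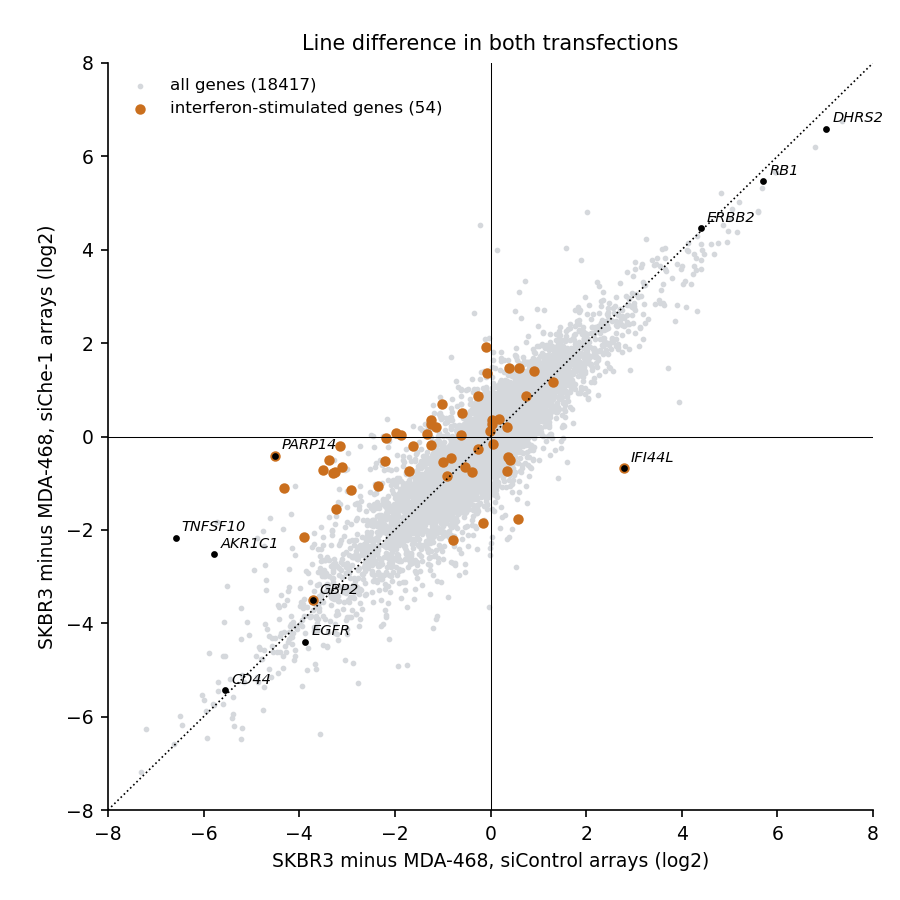
Line difference (log2, SKBR3 minus MDA-468) on the siControl arrays (horizontal) against that on the siChe-1 arrays (vertical) for 18417 genes in grey and 54 interferon-stimulated genes in orange, with the line of equality dotted. Most genes follow the dotted line, while many interferon-stimulated genes left of 0 lie nearer 0 on the vertical axis, with 9 of the 54 still called higher in MDA-468 there.

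Over all genes, the siChe-1 arrays, which are separate samples of the same lines, were set beside the siControl arrays. They called 3395 genes (18.4%), 1219 higher in SKBR3 (6.62%) and 2176 higher in MDA-468 (11.8%). Of the genes called with siControl, 78.6% were called with siChe-1 too, which is 67.9% of the siChe-1 calls, and 0 were called in opposite directions. Across genes, which are not independent replicates, the differences had a Pearson r of 0.901 and a Spearman rho of 0.862. The interaction of line and transfection passed the adjusted p of 0.05 for 2769 genes, a count that became 1698 without SKBR3 siControl replicate 2. ERBB2 differed by 4.46 with siChe-1, EGFR by -4.396, RB1 by 5.47, CD44 by -5.43, KRT5 by -5.06 and CDH1 by -4.32. AATF, the target of siChe-1, measured 9.08 and 9.02 in SKBR3 and 8.59, 8.64 and 8.69 in MDA-468 with siControl, a difference of 0.41 without a call. With siChe-1 its means were 8.41 in SKBR3 and 6.96 in MDA-468.

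The lowest windows of the genome were runs of zinc finger genes on chromosome 19. Most proteins of this family bind DNA through tandem zinc fingers and recruit repressors through a KRAB domain, and many act on retrotransposons. The family was singled out after these values were seen, so its counts are a description with no test. The 3 windows ran from ZNF714 to ZNF681 (median -3.46), from ZFP14 to ZNF793 (-2.96) and from ZNF627 to ZNF709 (-1.57). ZNF91, which is known to repress SVA elements, measured 3.402 and 3.15 in SKBR3 and 9.28, 9.32 and 9.22 in MDA-468. ZNF43 measured 3.07 and 2.82 in SKBR3 and 7.95, 7.63 and 7.63 in MDA-468. For both, every SKBR3 array was dim and no MDA-468 array was. ZNF675 (-4.87), ZNF431 (-4.41), ZNF570 (-4.74), ZNF382 (-4.73), ZNF585B (-4.64) and ZFP82 (-4.59) were further members with differences over 4, and ZNF799 (-3.02) and ZNF439 (-2.95) led the third window.

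Of 248 measured zinc finger genes of chromosome 19 (symbols that begin with ZNF, ZFP, ZSCAN or ZKSCAN and a digit), 129 were called higher in MDA-468 and 1, ZNF546, higher in SKBR3 (1.22, dim in both), with a median of -1.05. Of the other 1061 genes of that chromosome, 74 were higher in MDA-468 and 35 in SKBR3, with a median of 0.12. Of 292 zinc finger genes on other chromosomes, 44 were higher in MDA-468 and 9 in SKBR3, with a median of -0.09. Of the 248, 78 were dim in SKBR3 only and 3 in MDA-468 only. On the siChe-1 arrays the family of chromosome 19 had 148 higher in MDA-468, 2 higher in SKBR3 and a median of -1.39. Many of these genes are near-identical neighbours, so a probe set may also bind transcripts of a neighbour, and members are not independent.

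The promoters of ZNF91 and ZNF43, from the lowest window, and of ZNF382, from the next, are shown with CpG dinucleotides in capitals, since CpG sites are where DNA methylation, which was not measured here, can act (RefSeq, GRCh38.p14, chr19:23395422-23395721 minus strand, chr19:21836133-21836432 minus strand and chr19:36605063-36605362 plus strand).
ZNF91: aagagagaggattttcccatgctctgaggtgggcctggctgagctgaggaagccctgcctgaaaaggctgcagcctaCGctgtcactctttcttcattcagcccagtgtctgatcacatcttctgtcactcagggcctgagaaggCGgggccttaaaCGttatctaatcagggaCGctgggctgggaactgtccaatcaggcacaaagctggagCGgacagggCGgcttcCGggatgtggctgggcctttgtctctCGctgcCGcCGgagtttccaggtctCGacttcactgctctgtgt
ZNF43: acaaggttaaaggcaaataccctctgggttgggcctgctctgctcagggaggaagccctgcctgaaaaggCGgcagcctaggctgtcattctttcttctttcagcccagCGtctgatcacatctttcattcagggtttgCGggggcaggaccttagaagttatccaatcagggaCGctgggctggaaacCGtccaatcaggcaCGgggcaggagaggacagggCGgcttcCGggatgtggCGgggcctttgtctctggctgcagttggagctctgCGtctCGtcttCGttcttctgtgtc
ZNF382: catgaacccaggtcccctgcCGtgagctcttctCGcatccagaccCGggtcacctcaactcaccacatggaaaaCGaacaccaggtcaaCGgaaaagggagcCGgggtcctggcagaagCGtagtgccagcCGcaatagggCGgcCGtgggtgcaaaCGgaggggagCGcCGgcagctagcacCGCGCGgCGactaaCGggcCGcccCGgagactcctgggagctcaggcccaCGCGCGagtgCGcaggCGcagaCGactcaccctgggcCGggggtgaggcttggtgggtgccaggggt
The first 2 share 243 of 308 aligned positions (78.9%), against 46.6% between ZNF91 and ZNF382. ZNF382 and ZFP82, both of the second window, shared 51.1%, so that genes of a window need not have like promoters. The promoters of ZNF91, ZNF43 and ZNF382 hold 11, 12 and 27 CpG dinucleotides, and that of ZFP82 holds 37. The median was 19 for the zinc finger genes of chromosome 19 called higher in MDA-468, 22 for those not called and 23 for all measured genes.

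**Figure D5:**
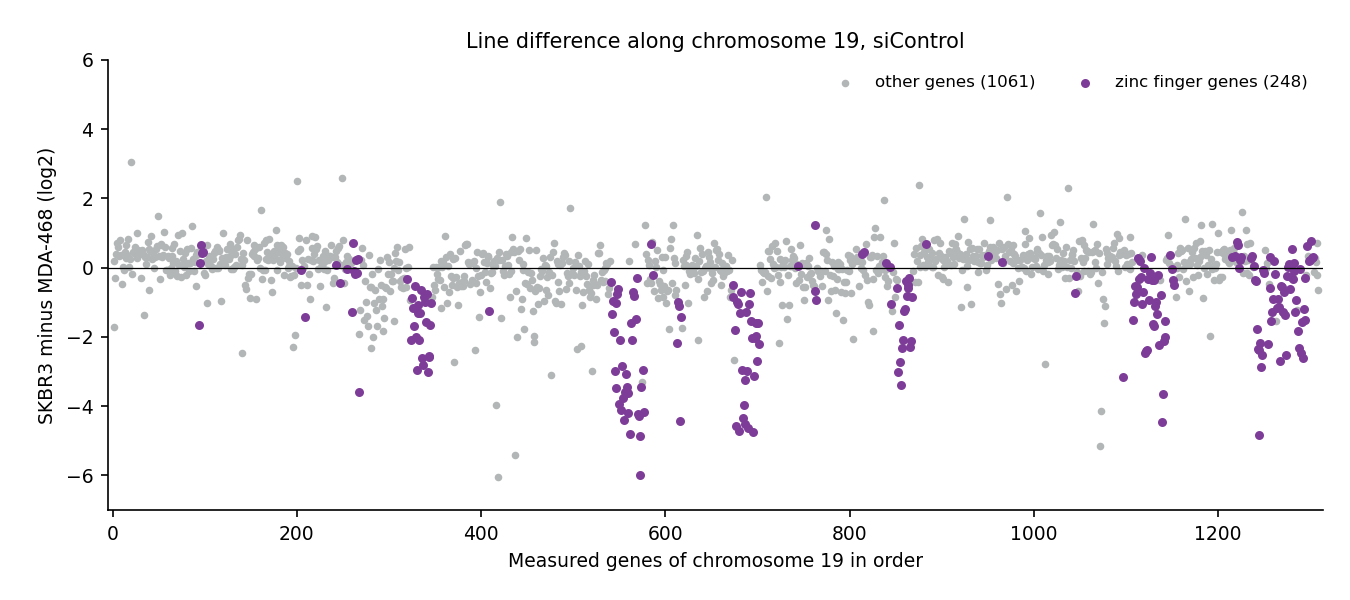
Line difference (log2, SKBR3 minus MDA-468) of the measured genes of chromosome 19 in their order along it, with 248 zinc finger genes in purple and the other 1061 in grey. The purple points fall in clusters that reach down to -5.998 (ZNF91), while the grey points stay close to 0 along most of the chromosome.

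Metabolic lists were mixed, and with siControl that of cholesterol synthesis and uptake had the median farthest from that of all genes (-0.62 against 0.096). Of its 22 measured genes, 7 were called higher in MDA-468 and 0 higher in SKBR3, against 10.1% and 5.79% of all genes. On the siChe-1 arrays 6 were higher in MDA-468 and 2 in SKBR3, with a median of -0.26. Oxidative phosphorylation genes there had 13 of 40 higher in SKBR3 and 0 in MDA-468 (median 0.798). SC5D, a late enzyme of the pathway, measured 7.33 and 7.66 in SKBR3 and 11.19, 11.21 and 11.15 in MDA-468 and differed by -3.68 (SE 0.11, adjusted p = 9.35e-08). MVD (-1.89), NSDHL (-1.68) and LSS (-1.64) followed. The rate-limiting epoxidase SQLE (0.69) and the regulator SREBF2 (0.61) differed towards SKBR3 without a call.

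Of 29 genes of fatty acid synthesis and storage, 3 were higher in SKBR3 and 6 in MDA-468, 31.0% in all against 15.9% of all genes. FASN, fatty acid synthase, measured 11.59 and 11.31 in SKBR3 and 9.77, 9.76 and 9.81 in MDA-468, a difference of 1.67 (SE 0.098, adjusted p = 3.84e-06). The elongase ELOVL6 (1.56) and the triglyceride enzyme DGAT1 (1.05) were also higher in SKBR3. The arachidonate-preferring synthetase ACSL4 (3.52 against 8.19, difference -4.67), the fatty acid carrier CD36 (-2.98) and the desaturases FADS1 (-1.95) and FADS2 (-1.82) had the largest differences towards MDA-468. In fatty acid oxidation and ketone use, HADH (1.596), ECI1 (1.299), CPT1A (1.14), the gate of mitochondrial entry, and PPARGC1B (1.09) were higher in SKBR3. The carnitine carrier SLC25A20 (-3.81) and the ketone body enzymes OXCT1 (-3.38) and BDH1 (-2.22) were higher in MDA-468. Of the 22 measured genes of that list, 31.8% were called.

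In serine and one-carbon metabolism the synthesis enzymes PHGDH and PSPH were higher in MDA-468 and the glycine cleavage enzyme GLDC higher in SKBR3, where it measured 10.74 and 10.47 in SKBR3 and 6.49, 6.63 and 6.33 in MDA-468. ALDH1L2 (-1.06) and TYMS (-1.01) were also higher in MDA-468 and MTHFD1 (1.002) in SKBR3. The list thus had 4 of 19 higher in MDA-468 and 2 in SKBR3, 31.6% in all against 15.9% of all genes. Of 25 glycolysis genes, ALDOC (2.09), TPI1 (2.02), PFKM (1.895) and LDHB (1.25) were higher in SKBR3, and PDK3 (-1.84) and PFKFB3 (-1.02) in MDA-468. SLC3A2, the heavy chain of amino acid exchangers, was the only called gene of 16 in glutamine, proline and aspartate metabolism (1.59).

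Of 24 citric acid cycle genes, the cytosolic aconitase ACO1 (-3.15), the malic enzyme ME3 (-1.56) and IDH1 (-1.39) were higher in MDA-468 and PCK2 (1.07) and DLST (1.02) in SKBR3. The share called was 20.8%, against 15.9% of all genes. Of 40 oxidative phosphorylation genes, 5 were higher in SKBR3 and 0 in MDA-468, with a median of 0.43 that became -0.11 with the unscaled values, still above the -0.38 of all genes there. NDUFB9 on chromosome 8 was the largest (2.45). Ribosomal protein genes were alike in this respect, with 5 of 32 higher in SKBR3 and 0 in MDA-468 (median 0.44, and 0.24 unscaled), led by RPS23 (2.004), RPL7 (1.76), RPL22 (1.62) and RPS24 (1.34). All calls in both lists were higher in SKBR3, 12.5% and 15.6% of members against 5.79% of all genes in that direction.

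Antioxidant and aldo-keto reductase genes went both ways, with 5 of 35 called higher in SKBR3 and 8 higher in MDA-468. Over all genes these shares were 5.79% and 10.1%. The list had 37.1% called against 15.9% of all genes, and its median was 0.003 against 0.096. AKR1C1 measured 6.197 and 6.01 in SKBR3 and 11.83, 11.91 and 11.89 in MDA-468, and AKR1C3 (-4.88), AKR1C2 (-4.62) and AKR1B10 (-4.16), enzymes that reduce steroids and carbonyls, followed it. All 4 differed by more than 4 log2 units towards MDA-468. On the siChe-1 arrays their differences were -2.51, -2.17, -1.75 and -2.39. Glutathione genes GSTM3 (10.47 against 7.48), GPX2 (2.89) and GPX3 (1.79) and thioredoxin reductase TXNRD1 (1.55) were higher in SKBR3.

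Ligands, receptors and targets of the TGF-beta family differed as well, with 9 of 25 called higher in SKBR3 and 4 in MDA-468. The list had 52.0% called, against 15.9% of all genes. Among ligands TGFB2 was higher in MDA-468 (6.63 against 10.58) with TGFB1 (-1.51), and TGFB3 (9.92 against 6.495) and BMP7 (10.54 against 7.28) were higher in SKBR3. Among receptors TGFBR2 (-1.08) and TGFBR3 (-1.46) were higher in MDA-468 and TGFBR1 (1.86) in SKBR3. The BMP target genes ID1 (1.56), ID2 (1.201), ID3 (1.41) and SMAD6 (1.58), named after their values were seen, were higher in SKBR3.

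Markers of other cell types were checked in both lines. Of 8 measured epithelial markers none was dim in both lines and CDH1 alone was called, with EPCAM at 11.79 and 12.38. Of 10 fibroblast markers 1 was called (FAP, -2.85), and the collagen gene COL1A2 stood at 6.38 and 6.08 and DCN at 3.500 and 3.44. Of 9 leukocyte markers CD14 (-3.58) was higher in MDA-468 and CSF1R (1.78) in SKBR3, while PTPRC, the gene of CD45, was dim in both (3.402 and 3.89). Of 7 endothelial markers KDR alone was called, and PECAM1 was dim in both (4.78 and 5.09). Of 8 myoepithelial markers KRT5 and MME were called, both higher in MDA-468, with a list median of 0.002. Of 5 adipocyte markers 0 were called (limma) and 4 were dim in both lines. What part these markers have in the line differences was not tested.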

How the data were processed

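RNA was extracted with Trizol and 6 µg was labelled per array, per the labels' protocols. The authors deposited log2 intensities per probe set. The submitters' processing notes name RMA and the Affymetrix Expression Console. Their versions, the annotation build and whether all 10 arrays were normalized in a single run are stated in no source used here. Of 33297 probe sets, 19460 carried 1 gene symbol, 1754 several and 12083 none. Symbols were updated by gene ID (19429 matched). Each of 18417 genes took its probe set of highest mean. The 5 siControl arrays were quantile-normalized over all probe sets and tested with limma 3.58.1 in R 4.3.3 (lmFit, eBayes), without a filter on low values, and the siChe-1 arrays likewise. Residual degrees of freedom were 3 and prior degrees 4.51. The interaction was fitted on all 10 arrays, quantile-normalized together. The limma steps were tested on simulated data. The number of arrays, 2 and 3, limits the precision.

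Same-numbered arrays did not deviate together (r of -0.23 and -0.07), and the arrays were treated as unpaired. With 2 SKBR3 arrays the deviations of 1 mirror those of the other, so this check cannot exclude a pairing. Named genes are the 15 largest differences per direction, all members of the ERBB, luminal keratin, luminal factor and locus lists, of other lists the 4 largest calls per direction (all where at most 5 were called), the 3 nearest neighbours of locus genes and the largest differences of each window. Genes named without a call elsewhere, and those beyond this rule, were chosen after their values were seen. The members and lists were chosen with earlier results of these data known. Promoters came from RefSeq (GRCh38.p14), aligned with Biopython 1.88. Alternatives were unscaled or median-centred values, quantile normalization over 10 arrays, filters at the 30th and 50th percentile, the mean of probe sets, an eBayes trend, a test against 1.5-fold, a replicate block and each array left out.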

Additional observations from a re-analysis of the deposited data

Results flagged for a closer look

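In 13 of 918 measured list members, the line difference was called with siControl and had the opposite sign with siChe-1, and the change itself passed the limma interaction (siChe-1 minus siControl difference, adjusted p below 0.05). No opposite difference was called with siChe-1, so none of the 13 is a call in both directions. Of all 18417 genes, 42 met the same condition.

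Most of them were antiviral or related genes that stood high in both lines after siChe-1. The largest change was that of IFI44L, with an interaction of -3.42: it was higher in SKBR3 with siControl (2.79) and lower with siChe-1 (-0.67). The change went the other way, towards SKBR3, for the ubiquitin ligases HERC5 (2.05) and HERC6 (1.36), the oligoadenylate synthetase OAS1 (1.88), TRIM22 (1.72), IFI35 (1.55), LAMP3 (1.504), IFIT3 (1.34) and the peptide-trimming peptidase ERAP1 (1.48). TNFAIP3, an inhibitor of NF-kappaB, changed by -1.24.

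Outside that response, CYP4Z1, a breast-enriched cytochrome P450, changed by 2.26. Its mean in MDA-468 was 10.32 with siControl and 7.35 with siChe-1, and in SKBR3 it was 8.07 and 7.37. PTGS1, the gene of cyclooxygenase 1, changed by 2.48, with 8.18 and 5.58 in MDA-468 and 6.02 and 5.95 in SKBR3. MYCN changed by 1.46, from -1.03 with siControl to 0.44 with siChe-1.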

How the results depend on the processing

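Of 370 named genes none changed sign with a call under any setting tried. With unscaled values 45 lost their call and 10 gained one, and with median-centred values 11 and 3. The filters tested only 308 and 224 of them. With unscaled deposited values, 444 genes were higher in SKBR3 and 3939 higher in MDA-468 with siControl, and 481 and 4317 with siChe-1. A filter at the 50th percentile left 1619 calls (684 and 935) with siControl and 2054 (824 and 1230) with siChe-1, with fewer genes tested. With a replicate block 2995 and 3295 genes were called. Leaving out single arrays gave 2858 to 3046 calls with siControl, 3216 to 3803 with siChe-1 and 1698 to 3992 interactions against 2769. The ERBB2 neighbour median of 1.764 became 2.018 with 5 and 1.085 with 20 on either side, and that of EGFR -0.054 with 20. Unscaled, the medians of glycolysis (-0.07), TGF-beta (-0.13), luminal factors (-0.27) and fatty acid synthesis (-0.42) fell below 0, and all but the last stayed above that of all genes. No array carries a background call, so dim levels set no ratio.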

Other observations

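Proteases and their inhibitors went both ways. TIMP2, an inhibitor of metalloproteinases, was higher in SKBR3 (10.53 against 6.73). Its relatives TIMP1 (-2.81) and TIMP3 (-2.204), the metalloproteinase MMP7 (-4.15) and the serpin SERPINE2 (-1.75) were higher in MDA-468. The other probe set of TIMP3 gave -0.904. Of 29 steroid and xenobiotic enzymes, 9 were higher in MDA-468 and 2 in SKBR3. ALDH1A1, an aldehyde dehydrogenase used as a stem cell marker, stood at 6.26 in SKBR3 and 9.95 in MDA-468, followed by the steroid sulfatase STS (-2.84), PTGS1 (-2.15) and CYP4F11 (-2.01). HPGD (1.33), which inactivates prostaglandins, and CYP1A1 (1.02) were higher in SKBR3. Among cytokine genes TNFSF10, CCL28 (-3.54), NFKBIZ (-2.73) and CXCL16 (-2.59) were higher in MDA-468 and TNFAIP3 (1.17), CCL20 (1.11) and NFKB1 (1.02) in SKBR3. The lists of proteases, steroid enzymes and cytokine genes had 27.8%, 37.9% and 32.3% called, against 15.9% of all genes.

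Of 33 genes of the G2/M list, AURKA (1.07) was called higher in SKBR3, and NDC80 (-2.296), TTK (-1.41) and CDCA8 (-1.26) higher in MDA-468, with a median of -0.21. The 12.1% called is near the 15.9% of all genes. By limma adjusted p alone 16 of the 33 were higher in MDA-468 and 6 in SKBR3, against 29.2% and 37.3% of all genes. RBL1, the gene of the RB1 relative p107, was higher in SKBR3 (1.48). Nuclear receptor genes RORA (1.96) and NR4A1 (1.02) were higher in SKBR3, and the coregulators NCOA7 (-1.75) and NRIP1 (-1.69) and the retinoid receptor RARB (-1.28) higher in MDA-468. Of 16 homeobox genes, HOXB7 (-2.23) and HOXB2 (-1.46) were higher in MDA-468, and of 10 cancer-testis genes CTAG2 (2.003) was higher in SKBR3. Of 23 genes of the PI3K pathway beside INPP4B, PIK3R1 and GRB7, the kinase PDPK1 was called (1.24). Its 4 probe sets gave 0.745 to 2.037, so the call depends on the probe set taken. The PI3K, homeobox and cancer-testis lists had 17.4%, 12.5% and 10.0% called, near or below the 15.9% of all genes. The nuclear receptor list had 26.9% called.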
